A study of Mus musculus with 36 samples.

Results

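The step from day 4 to day 5 of differentiation was examined in Xmas mouse embryonic stem cells (mESCs), by setting the 4 libraries of day 5 against the 4 libraries of day 4 in a series of 36 libraries. Members were chosen by the day named in the labels, and each day 5 library was paired with the day 4 library of the same line (X14 or X18) and of the same label word (double or single), which gave 4 pairs. Both lines are female and C57/Bl6, with GFP knocked in at Hprt on one X chromosome and mCherry at the same place on the other. Whether every library still held both alleles was not tested, since the labels do not say what single means and mESCs in culture can lose an X. Cells had been weaned from 2i and LIF, which hold mESCs in the naive state, into serum medium without LIF, and on the day they reached serum medium alone they were plated on gelatin and left unpassaged. Day 4 and day 5 differ in the labels only by the day. The sources used here do not say on which sampled day the replating fell, nor what double and single mean. A change with time in culture, with density or with the age of the medium cannot be told apart. The study describes its time course as made of independent replicates, and the labels tell the 4 pairs apart only by line and label word. Standard errors and p-values of single genes come from a fit of all 36 libraries. They measure the spread between these libraries over all 9 days and not that of the 4 pairs alone.

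As background, mESCs leaving the naive state pass through formative and primed states, in which FGF and Nodal signalling is active and the de novo DNA methyltransferases are high, before they take up lineage programmes. Cells that spread on a surface polymerise actin, which frees the cofactors of serum response factor (SRF) and lets YAP and TAZ enter the nucleus to bind TEAD factors. Lysosomes degrade and recycle proteins, lipids and glycans, and Myc factors drive ribosome production and growth.

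In this step genes of contractile actin, of YAP and TEAD, of simple epithelium and of the lysosome were higher on day 5. Genes of the formative and primed state, of FGF signalling, of DNA methylation and of ribosome production were lower. Some genes of the G1 to S transition were lower too. Levels are given as RPM (reads of a gene scaled to a common number of reads per library), differences as log2 fold changes of day 5 over day 4 with their standard error (SE), and adjusted p-values come from limma with Benjamini-Hochberg adjustment over all genes tested. Called means an adjusted p under 0.05 and a log2 fold change of at least 1 either way. Of 14612 genes tested, 1743 were called (11.9%), with 801 higher (5.48%) and 942 lower (6.45%). Counts of a gene list below are to be read against these shares. The median log2 fold change was 1.70 over the genes called higher, -1.58 over those called lower and -0.02 over all genes tested. At an adjusted p under 0.05 with no minimum fold, 2783 genes passed. On the log2 values all 4 pairs shared a sign in 747 of the 801 genes called higher and 890 of the 942 called lower. Those values hold 0.9 read where a gene had 0 reads, so a pair without reads on both days also takes a sign, from depth. Acta2 in X14 double had 0 RPM on both days and a log2 step of 0.95. Of the 801, 370 had under 10 RPM on day 5, and of the 942, 244 had under 10 RPM on day 4.

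**Figure D1:**
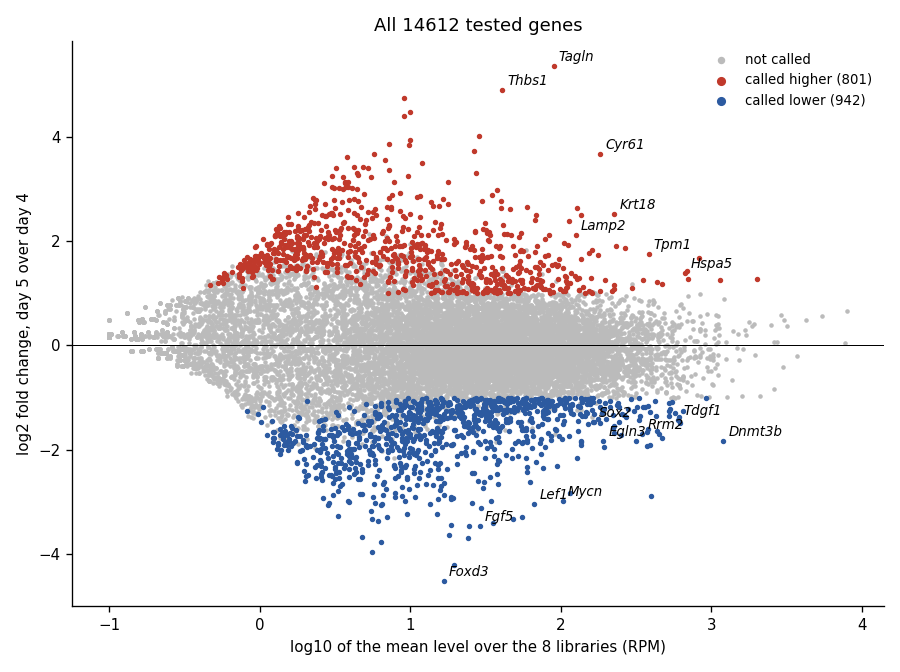
Log2 fold change from day 4 to day 5 (y axis) against the log10 of the mean level over the 8 libraries in RPM (x axis), with 1 point for each of 14612 tested genes. Red points are the 801 genes called higher, blue points the 942 called lower and grey points the rest, and the labelled genes reach from Tagln at 5.35 to Foxd3 at -4.51.

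Day 5 X14 double was the shallowest library, and it stood apart. Reads in genes were 1274068 to 1558966 in the day 4 libraries, and 612740 (X14 double), 1037918 (X14 single), 1362382 (X18 double) and 2445826 (X18 single) on day 5. A floor of 3 reads is 1.68 to 2.02 RPM on day 4 and 1.04 to 3.9 RPM on day 5, and floors cover counting error only. Over the 9115 genes that averaged 10 RPM or more, day 5 X14 double correlated with the other day 5 libraries at Pearson's r of 0.869 to 0.917 across genes, against 0.943 to 0.974 among those 3. It was also short of long genes. Its median deviation from the other 3 day 5 libraries was 0.39 on the log2 scale in the shortest class of genes (exon length up to 2425 bases) and -0.97 in the longest class (5804 bases or more). Day 5 X18 single leaned the other way, at -0.19 and 0.30, and the day 4 libraries stayed between -0.11 and 0.15 in all 4 length classes.

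**Figure D2:**
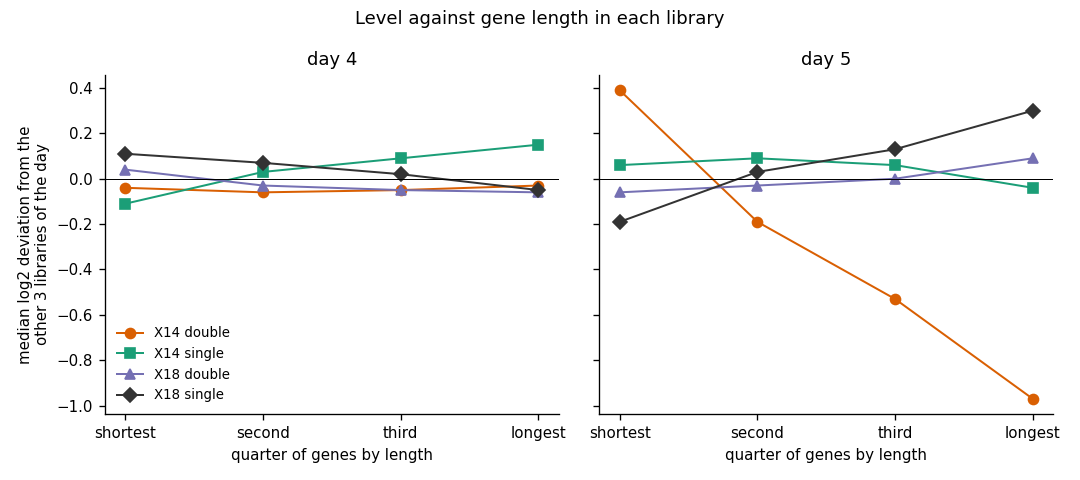
Median log2 deviation of each library from the median of the other 3 libraries of its day (y axis) in 4 equal classes of 9115 genes ordered by exon length (x axis), with day 4 on the left and day 5 on the right. The line of day 5 X14 double falls from 0.39 to -0.97, and the other 7 lines stay between -0.19 and 0.30.

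Counts of a list are therefore given with all 8 libraries and, where they differ, without day 5 X14 double. Without it 997 genes were called higher (6.82%) and 920 lower (6.3%), 13.1% in all. Of the genes called with all libraries, 686 of 801 higher and 727 of 942 lower were called again without it, 504 genes were gained, and 0 of the 1743 turned sign. Without that library the median log2 fold change followed length, from -0.21 in the shortest class to 0.26 in the longest, so small shifts of a list are to be read against its gene length. A further fit, chosen after the data were seen, removed each library's trend with gene length and called 815 genes higher (5.58%) and 1058 lower (7.24%), 12.8% in all. It called 746 of the 801 and 923 of the 942 again, and 0 of the 1743 turned sign. The 4 cultures were also compared with each other by calling genes from 3 of them and reading the fourth. X14 single had the same direction in 96.1% of 484 genes higher in the others and in 93.2% of 737 lower, where 53.6% and 46.4% of all tested genes had that direction. X18 double gave 95.1% and 97.1%, X18 single 95.3% and 97.0%, and X14 double 80.5% and 91.5%, where 44.8% and 55.2% of all tested genes had that direction in it.

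Genes of contractile actin rose. Of 24 tested genes in a list of contractile actin genes and SRF targets, 11 were called higher and 1 lower (Egr1), with a median log2 fold change of 1.03. Without day 5 X14 double the counts were 14 and 1 and the median was 1.33, and with the length trend removed they were 11 and 1. Called higher were Tagln, Acta1, Cyr61, Acta2, Myl9, Ctgf, Tpm1, Cnn1, Actc1, Ankrd1 and Cnn2. In bulk RNA a larger share of cells that carry a transcript and more of it in each cell cannot be told apart.

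A few promoter sequences are printed here because SRF binds a short element, the CArG box, and these members moved together. The 4 windows below are those of the genes called higher in the contractile list in which a CArG box was found, with the box in capitals, and they come from RefSeq on GRCm38.p6 (250 bases before to 50 after the start site). The Acta1 window is chr8:123894726-123895025 on the minus strand, with the box 73 to 64 bases before the start site. That of Myl9 is chr2:156775214-156775513 on the plus strand, with the box 161 to 152 bases before. That of Actc1 is chr2:114052826-114053125 on the minus strand, at 47 to 38 bases before, and that of Cnn2 is chr10:79988350-79988649 on the plus strand, at 56 to 47 bases before.
Acta1: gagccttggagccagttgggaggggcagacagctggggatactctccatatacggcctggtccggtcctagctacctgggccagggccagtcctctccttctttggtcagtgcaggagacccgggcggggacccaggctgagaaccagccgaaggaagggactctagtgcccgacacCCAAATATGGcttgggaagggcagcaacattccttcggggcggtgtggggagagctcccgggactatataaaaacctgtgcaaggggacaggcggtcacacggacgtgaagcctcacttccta
Myl9: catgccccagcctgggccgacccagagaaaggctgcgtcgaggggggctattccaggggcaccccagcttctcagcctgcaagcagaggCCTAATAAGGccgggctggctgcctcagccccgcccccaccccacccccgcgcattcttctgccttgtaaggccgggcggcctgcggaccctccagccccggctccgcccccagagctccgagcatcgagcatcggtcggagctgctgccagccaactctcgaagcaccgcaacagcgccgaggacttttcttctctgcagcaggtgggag
Actc1: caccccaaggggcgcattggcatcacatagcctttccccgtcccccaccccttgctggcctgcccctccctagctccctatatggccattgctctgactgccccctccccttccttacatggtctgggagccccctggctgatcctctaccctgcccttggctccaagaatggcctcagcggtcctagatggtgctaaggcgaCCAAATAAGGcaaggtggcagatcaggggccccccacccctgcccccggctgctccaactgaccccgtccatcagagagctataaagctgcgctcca
Cnn2: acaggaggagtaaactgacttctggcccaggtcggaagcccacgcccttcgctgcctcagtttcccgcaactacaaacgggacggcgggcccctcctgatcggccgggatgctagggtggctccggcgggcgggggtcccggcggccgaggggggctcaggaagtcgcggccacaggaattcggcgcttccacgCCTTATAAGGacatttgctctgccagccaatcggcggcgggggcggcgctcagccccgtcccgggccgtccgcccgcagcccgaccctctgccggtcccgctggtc
A CArG box on either strand was found in 7 of 20 windows of the contractile list (35.0%), in 3.01% of 599 windows of genes called higher, in 1.12% of 713 windows of genes called lower and in 1.57% of 11184 windows of all tested genes. The list was written as SRF targets, so its own share is a property of how it was made. The windows of Cyr61, Acta2, Tpm1, Cnn1 and Ankrd1 held no such box, which says only that these letters are not in this window. For Tagln and Ctgf no window was available, so neither was searched. The letters GGAATG, which TEAD factors bind, stood in 8 of 12 windows of the Hippo list (66.7%), 20.2% of the genes called higher, 15.7% of those called lower and 14.5% of all. The letters TATAAA stood in 10.4%, 10.2% and 8.71% of the same 3 groups, TGANTCA in 6.84%, 5.61% and 6.09%, TCACNCCAC in 2.17%, 1.68% and 1.52%, ATTTGCAT in 1.0%, 1.96% and 1.64%, and GTCTAGAC in 0%, 0.421% and 0.34%. The Hippo list was written to hold YAP targets, so its share of GGAATG is likewise a property of how it was made. All letters were searched on either strand, and a match is a description of the letters and not a site.

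Tagln (chr9:45929628-45936058, mm10), which encodes the actin-binding protein transgelin, stood at 2.02, 3.88, 2.82 and 10.6 RPM on day 4 and at 153, 264, 79.3 and 202 RPM on day 5 (X14 double, X14 single, X18 double and X18 single, the order used throughout). The groups did not overlap, and the lowest day 5 value was above the highest of day 4 by a wide margin. Its log2 fold change was 5.35 ± 0.40 (SE from the fit of all 36 libraries, 4 pairs, limma adjusted p = 2e-10) and 5.09 without day 5 X14 double. Acta1 (chr8:123891767-123894736, mm10), skeletal muscle actin, had 0 reads in all day 4 libraries and 10.4, 30.4, 5.62 and 26.1 RPM on day 5. Against the mean day 4 floor of 1.83 RPM the day 5 mean is at least 9.9-fold higher. Acta2, smooth muscle actin, also had 0 reads on day 4 and reached 0, 18.9, 2.5 and 20.5 RPM. By the same measure its day 5 mean was at least 5.72-fold higher, a bound that neither double culture reached alone. Both single cultures were above both double cultures on day 5. Myl9, a regulatory light chain of myosin, went from 3.36, 21.4, 1.69 and 18.5 RPM to 26, 89.7, 33.7 and 85.5 RPM (2.89 ± 0.50, limma adjusted p = 0.00011). Tpm1, a tropomyosin that lies along actin filaments, went from 140, 206, 145 and 199 RPM to 447, 808, 409 and 731 RPM (1.76 ± 0.16, limma adjusted p = 9.5e-09). In both genes the single cultures were above the double cultures on each day, and all 4 pairs rose. The calponins Cnn1 (1.71 ± 0.46) and Cnn2 (1.33 ± 0.33) rose too. Actc1 and Ankrd1 were called at mean levels of 1.95 and 1.93 RPM on day 5, below that day's mean floor of 2.32 RPM, and no fold is given for them.

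The main cytoplasmic actin gene and Srf did not pass the test. Actb was at 3730, 3130, 3600 and 3050 RPM on day 4 and 1790, 3360, 2480 and 2700 RPM on day 5, with a log2 fold change of -0.42 ± 0.20 (limma adjusted p = 0.15). Srf itself was at 0.39 ± 0.28 (limma adjusted p = 0.36). The long gene Myh9, non-muscle myosin heavy chain, was at 266 RPM in day 5 X14 double and at 901 to 1100 RPM in the other 3 day 5 libraries, against 363 to 463 RPM on day 4, so its log2 fold change was 0.78 (limma adjusted p = 0.14) with that library and 1.34 (limma adjusted p = 0.0029) without it.

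YAP and TEAD target genes rose while the cofactors themselves were not called. Of 16 tested genes in a list of the Hippo pathway and YAP targets, 6 were called higher and 1 lower (Ccnd1), with a median of 1.0. Without day 5 X14 double 7 were higher and 0 lower, with a median of 1.32. With the length trend removed the counts were 6 and 1. Cyr61, Ctgf and Ankrd1 stand in both this list and the contractile list. Cyr61 (chr3:145646971-145649985, mm10), a secreted matrix protein of the CCN family, went from 27.6, 18.8, 37.2 and 25.2 RPM to 269, 414, 314 and 357 RPM (3.66 ± 0.37, limma adjusted p = 5e-08). Ctgf, of the same family, went from 26.9, 17.5, 28.2 and 23 RPM to 65, 98.8, 88.7 and 87.2 RPM (1.84 ± 0.29, limma adjusted p = 2.7e-05). In both genes the 2 days did not overlap. Among the DNA-binding partners of YAP, Tead1 went from 51.1, 56.9, 48.4 and 40.9 RPM to 49.4, 169, 182 and 236 RPM, a rise of 1.49 ± 0.41 that was absent in X14 double and that became 2.10 without its day 5 library. Tead4 rose by 1.80 ± 0.46 at low levels (means of 1.65 and 4.64 RPM). Lats2, the kinase that restrains YAP and is itself a YAP target, rose by 1.34 ± 0.42. Yap1 was at -0.36 ± 0.25 (limma adjusted p = 0.35) and Wwtr1, which encodes TAZ, at 0.52 ± 0.25 (limma adjusted p = 0.16).

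Thbs1 (chr2:118111876-118127133, mm10), which encodes the matrix glycoprotein thrombospondin 1, had the next largest rise after Tagln among genes with at least 10 RPM on the higher day, at least 4 reads in all on the lower day and the same sign in all pairs. It went from 4.03, 1.29, 7.32 and 0 RPM to 16.9, 114, 65.6 and 118 RPM (4.89 ± 0.63, limma adjusted p = 1.6e-06). The other genes of that ranking were Rgl3 (4.47), Tinagl1 (4.40), Cxcl16 (4.01), Mcoln3 (3.93), Stmn4 (3.83), Aqp3 (3.73), Cyr61 (3.66), Dbndd2 (3.66), Tbx3 (3.56), Pitpnm1 (3.5), S100a1 (3.36), Stom (3.31) and Cxcl10 (3.24). S100a13, with 2 reads in all on day 4, rose too, and its pooled read ratio was 33.2 (95% counting interval 8.82 to 280). Cxcl16 and Cxcl10 encode chemokines, and Stom the membrane protein stomatin.

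Keratins and tight junction genes of simple epithelium rose. Krt18 (chr15:102028216-102032026, mm10) went from 73.9, 58.2, 81.7 and 59.4 RPM to 412, 391, 395 and 351 RPM (2.52 ± 0.44, limma adjusted p = 0.00013). Its partner Krt8, with which it forms filaments, went from 14.8, 10.4, 14.6 and 6.17 RPM to 58.5, 83.9, 60 and 70.9 RPM (2.64 ± 0.58, limma adjusted p = 0.0015). Neither gene had overlapping days, and the 4 cultures were close to each other on day 5. Krt19 rose by 1.57 ± 0.44, from 3.92 to 17.5 RPM on day 4 to 13 to 44.4 RPM on day 5. Of 17 tested genes in a list of trophoblast and surface ectoderm factors, 4 were called higher (Krt8, Krt18, Krt19 and Tead4) and 1 lower (Grhl2). The counts were 4 and 1 without day 5 X14 double and with the length trend removed. The median was 0.19, and 5 members were under 3 reads on both days. Genes with 0 reads in all 8 libraries, such as Postn and Nanos3, also have a fitted change of 0.19, from depth alone, so this median shows no shift. The members that rose are keratins and a TEAD factor, and Grhl2, which fell, encodes a regulator of epithelial genes. Gata3, a trophoblast regulator, was at 1.06 ± 0.67 (limma adjusted p = 0.3).

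Of 17 tested genes in a list of junction, ion and water transport genes, 5 were called higher (Aqp3, Cldn7, Cldn4, Atp1b1 and Cldn3) and 0 lower, with a median of 0.03, and the same counts were found without day 5 X14 double (median 0.32) and with the length trend removed (median 0.00). Cldn4, a claudin that seals tight junctions, went from 129, 67.9, 146 and 110 RPM to 623, 328, 507 and 245 RPM (1.87 ± 0.31, limma adjusted p = 7.8e-05). Cldn7 rose by 2.04 ± 0.50 and Cldn3 by 1.43 ± 0.45. Atp1b1, the beta subunit of the sodium pump, went from 57.6 to 117 RPM on day 4 to 168 to 368 RPM on day 5 (1.73 ± 0.31, limma adjusted p = 0.00017). Aqp3, a water and glycerol channel, went from 7.39, 0.647, 6.76 and 1.68 RPM to 91, 23.9, 70 and 11.1 RPM, with both double cultures above both single cultures on each day. In a list of 17 cadherin switch and EMT genes, Cldn7, Itgb4 and Ocln were called higher and Zeb1, a repressor of epithelial genes, lower (median 0.19). Zeb1 was at 4.48 to 9.7 RPM on day 4 and at 0, 0, 0 and 0.347 RPM on day 5, with a pooled read ratio of 41.2 (95% counting interval 7 to 1660). Cdh1, the epithelial cadherin, was at 656 to 906 RPM and then 451 to 1090 RPM (0.09 ± 0.29, limma adjusted p = 0.87).

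Genes of the lysosome rose as a broad group of moderate size. Of 24 tested, 9 were called higher and 0 lower, all 24 had a fitted change above 0 (also without day 5 X14 double), and the median was 0.87, against -0.02 over all genes and -0.08 over genes of at least 10 RPM. Without day 5 X14 double 8 were higher and 0 lower (median 0.91), and with the length trend removed 9 and 0 (median 0.86). Neu1 (chr17:34931253-34935953, mm10), a sialidase, went from 11.4, 20.1, 16.9 and 40.4 RPM to 156, 93, 105 and 103 RPM (2.49 ± 0.36, limma adjusted p = 8.1e-06). Lamp2 (chrX:38401357-38456454, mm10), a major membrane protein of the lysosome, went from 50.4, 27.8, 64.2 and 44.3 RPM to 298, 122, 243 and 156 RPM (2.11 ± 0.28, limma adjusted p = 2.3e-06). The days did not overlap in either gene. Hexa, which encodes a lysosomal glycosidase, rose by 1.93 ± 0.21. Ctsd, an aspartic protease of the lysosome, went from 335, 204, 366 and 247 RPM to 845, 544, 713 and 493 RPM (1.18 ± 0.18, limma adjusted p = 2.3e-05). The cysteine protease Ctsb rose by 1.01 ± 0.18 and the cholesterol carrier Npc2 by 1.16 ± 0.18, and both fell below the minimum fold without day 5 X14 double, at 0.96 and 0.93. The tetraspanin Cd63 rose by 1.90 ± 0.29 and the cholesterol exporter Npc1 by 1.24 ± 0.34. Lamp1 (0.62 ± 0.16, limma adjusted p = 0.0054) stayed under the minimum fold and Glb1 was at 0.05 ± 0.33 (limma adjusted p = 0.94). The letters ACGTG, on either strand, stood in 11 of 19 windows of the lysosomal list (57.9%) and in 29.0% of all windows, as a description only, and in 31.4% of the windows of genes called higher and 32.7% of those called lower.

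Formative and primed factors fell. Of 18 tested, all had a fitted change below 0, and 17 without day 5 X14 double. Of the 18, 0 were called higher and 11 lower, with a median of -1.38, and 0 and 8 without day 5 X14 double (median -1.15), and 0 and 11 with the length trend removed. Foxd3 (chr4:99656299-99658671, mm10), a forkhead factor of the exit from the naive state, had the largest fall by the ranking rule given above. It went from 30.9, 36.9, 27.6 and 31.9 RPM to 1.3, 2.47, 0 and 2.08 RPM (-4.51 ± 0.56, limma adjusted p = 1e-06). Lef1, a Wnt effector, went from 130, 118, 125 and 103 RPM to 13, 15.6, 11.2 and 18.4 RPM (-3.05 ± 0.50, limma adjusted p = 5.8e-05). Fgf5 (chr5:98254184-98277030, mm10), the marker of the primed state, went from 55.1, 69.2, 41.7 and 46 RPM to 5.2, 5.76, 2.5 and 6.6 RPM (-3.46 ± 0.46, limma adjusted p = 3.1e-06). In these 3 genes the days were separated in all cultures by more than their spread. Tcf15 fell by 2.37 on the log2 scale and Pou3f1 by 2.15, the latter from 127 to 327 RPM on day 4 to 23.4 to 68.3 RPM on day 5. Otx2 went from 273, 243, 307 and 257 RPM to 118, 101, 113 and 104 RPM (-1.31 ± 0.45, limma adjusted p = 0.04). Its call was lost without day 5 X14 double (-1.32, limma adjusted p = 0.058), where its fall was as large and only the adjusted p crossed the threshold. The calls of Etv5 (-1.21) and Zic2 (-1.12) were lost there too, at -0.99 and -0.61. Utf1 (-0.27 ± 0.23) and Lin28a (-0.07 ± 0.45) did not pass.

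Of 19 tested naive pluripotency factors, 1 was called higher and 5 lower, with a median of -0.83 (2 and 5, median -0.57, without day 5 X14 double). Pou5f1, which encodes Oct4, was at 1180, 1040, 1300 and 1300 RPM on day 4 and 1300, 842, 836 and 697 RPM on day 5 (-0.43 ± 0.26, limma adjusted p = 0.28). Without day 5 X14 double its change was -0.72 (limma adjusted p = 0.04). Sox2 went from 301, 217, 293 and 165 RPM to 76.7, 82.3, 117 and 72.6 RPM (-1.47 ± 0.25, limma adjusted p = 0.0001). Nanog was at 196, 36.9, 230 and 57.7 RPM and then 159, 106, 122 and 80.6 RPM (0.20 ± 0.45, limma adjusted p = 0.83), down in both double cultures and up in both single cultures. Klf2 fell by 2.63, while the X-linked Nr0b1 fell by 3.02 and Nr5a2 fell by 1.79 on the log2 scale. Tdh, threonine dehydrogenase, on which naive mESCs depend, went from 108, 56.3, 105 and 78.5 RPM to 11.7, 12.3, 9.99 and 3.47 RPM (-3.32 ± 0.57, limma adjusted p = 9.8e-05). Tbx3, the member that rose, went from 0.563 to 2.69 RPM to 9.38 to 18.1 RPM (3.56 ± 0.56). Esrrb was at -0.83 ± 0.39 and Zfp42 at -0.39 ± 0.30, neither called.

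**Figure D3:**
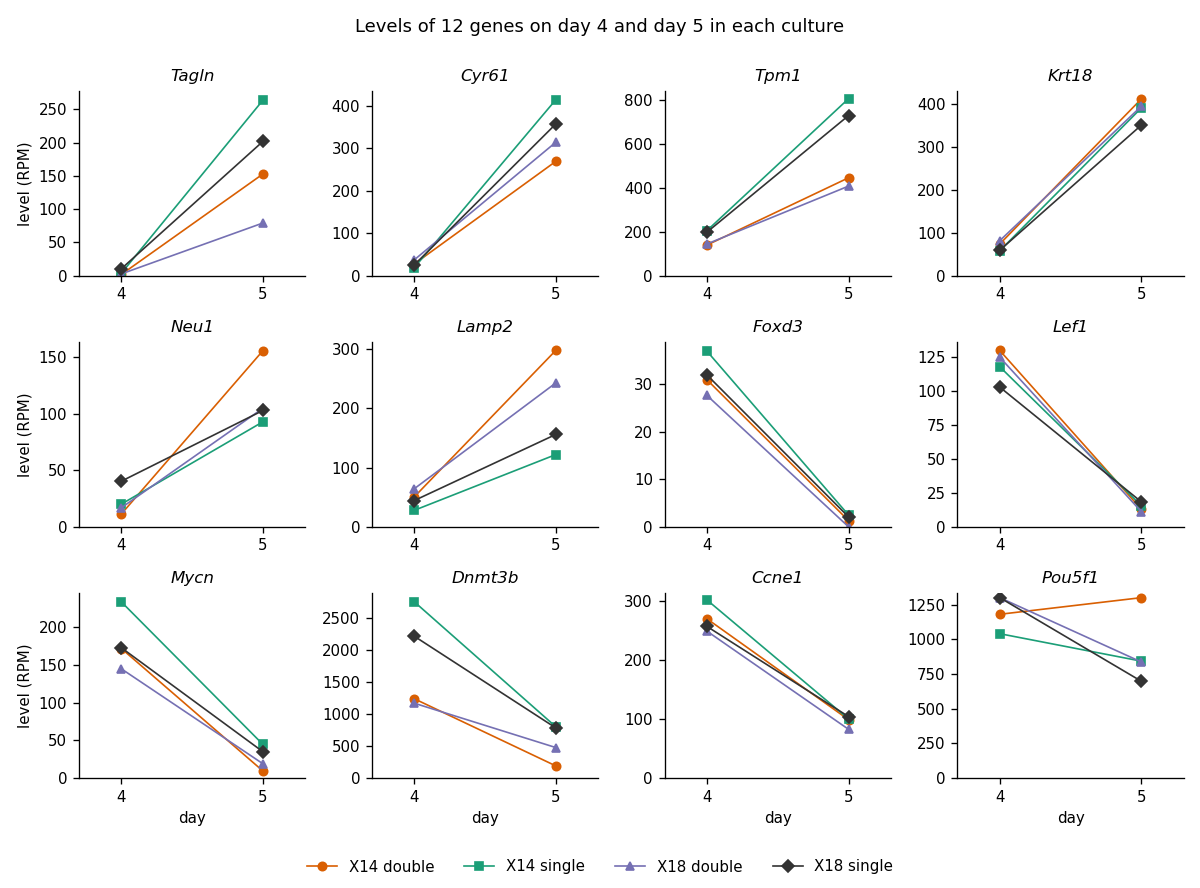
Level in RPM (y axis, from 0) of 12 genes on day 4 and day 5 (x axis), with 1 line for each of the 4 cultures. In Tagln, Cyr61, Tpm1, Krt18, Neu1 and Lamp2 all 4 lines rise, in Foxd3, Lef1, Mycn, Dnmt3b and Ccne1 all 4 fall, and in Pou5f1 the X14 double line goes from 1180 to 1300 RPM while the other 3 fall.

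Genes of FGF and ERK signalling were lower at the level of ligand, feedback and target. Of 26 tested, 1 was called higher and 10 lower, with a median of -0.72 (1 and 7, median -0.60, without day 5 X14 double, and 1 and 10 with the length trend removed). Fgf5 and Etv5 stand in this list too. Among the ligands, Fgf15 went from 32.9, 44.6, 23.1 and 30.8 RPM to 0, 2.47, 1.87 and 7.99 RPM (-3.64 ± 0.54, limma adjusted p = 1.4e-05). Fgf4, the main ligand of mESCs, was at 267 to 327 RPM and then 149 to 189 RPM, without overlap, and at -0.82 ± 0.25 (limma adjusted p = 0.021) it stayed under the minimum fold. Among the receptors, Fgfr3 rose from 0 to 1.29 RPM to 3.9 to 8.12 RPM (2.52 ± 0.65, limma adjusted p = 0.0061). Of the feedback inhibitors, Spry4 fell by 2.98 and Spry2 by 1.32 on the log2 scale, while Dusp6 (-0.47 ± 0.30) and Dusp4 (0.63 ± 0.42) did not pass. Among nuclear targets, Egr1 fell by 2.65, Ier3 by 2.15, Etv1 by 1.93 and Etv4 by 1.86. The call of Etv1 was lost without day 5 X14 double (-1.42, limma adjusted p = 0.1).

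The 4 DNA methyltransferase genes fell. Of 12 tested genes for DNA methylation enzymes, 0 were called higher and 4 lower, with a median of -1.11 (0 and 3, median -0.72, without day 5 X14 double, and 0 and 6 with the length trend removed), and all 12 fitted changes were below 0 with and without that library. Dnmt3b (chr2:153649450-153687730, mm10), a de novo methyltransferase, went from 1240, 2760, 1170 and 2220 RPM to 188, 801, 475 and 783 RPM (-1.83 ± 0.33, limma adjusted p = 0.00018). Dnmt3a (chr12:3806007-3914443, mm10) went from 421, 842, 420 and 790 RPM to 72.8, 198, 190 and 212 RPM (-1.91 ± 0.35, limma adjusted p = 0.00023). Both were higher in the single than in the double cultures on day 4. Dnmt3l, their catalytically inactive partner, went from 1090, 617, 1250 and 696 RPM to 404, 242, 448 and 220 RPM (-1.48 ± 0.42), with the double cultures higher on both days. Dnmt1, the maintenance enzyme, was at 262 to 324 RPM on day 4 and at 32.5, 172, 191 and 189 RPM on day 5. Its call (-1.33 ± 0.40, limma adjusted p = 0.018) was lost without day 5 X14 double (-0.61, limma adjusted p = 0.15). Its partner Uhrf1 was at -0.91 ± 0.27 (limma adjusted p = 0.015) and the demethylating enzyme Tet1 at -1.23 ± 0.46 (limma adjusted p = 0.06), neither called.

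Ribosome production genes and Myc factors fell. Of 24 tested, 0 were called higher and 8 lower, with a median of -0.86 (0 and 5, median -0.73, without day 5 X14 double, and 0 and 9 with the length trend removed), and 1 member had a fitted change above 0 (2 without that library). Mycn (chr12:12936096-12941914, mm10), the Myc factor of highest level here, went from 172, 234, 145 and 173 RPM to 9.1, 44.4, 18.7 and 34.7 RPM (-2.98 ± 0.29, limma adjusted p = 3.7e-08). Myc went from 12.8, 61.5, 14.1 and 42 RPM to 0, 15.6, 7.49 and 9.73 RPM, and its call (-2.11 ± 0.68, limma adjusted p = 0.028) was lost without day 5 X14 double (-1.36, limma adjusted p = 0.16). Both factors fell in all 4 pairs. Polr1b, a subunit of RNA polymerase I, went from 168, 198, 122 and 140 RPM to 28.6, 59.3, 36.8 and 63.9 RPM (-1.79 ± 0.21, limma adjusted p = 5.7e-07). Odc1, the rate-limiting enzyme of polyamine synthesis, fell by 1.35, and the ribosome assembly factors Bop1, Rrp9 and Rrp12 fell by 1.12, 1.06 and 1.06 on the log2 scale. The calls of Rrp12 and Polr1a (-1.0) were lost without day 5 X14 double. Nucleolin (Ncl, -0.84 ± 0.24) and nucleophosmin (Npm1, -0.06 ± 0.17) were not called. Of 33 cytosolic ribosomal proteins, 0 were called higher and 1 lower (Rpl27, -1.14 ± 0.30). Their median of 0.39 became 0.04 without day 5 X14 double, and these genes are short (median exon length 1586 bases).

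Some cell cycle genes of the G1 to S transition fell. Of 19 G1 cyclins and inhibitors, 1 was called higher and 6 lower (median -0.21), and 0 and 3 without day 5 X14 double. Ccne1, which drives entry into S phase, went from 270, 302, 249 and 257 RPM to 98.8, 100, 82.4 and 104 RPM (-1.49 ± 0.15, limma adjusted p = 6.5e-08). On each day its 4 cultures lay close to each other. Ccne2 fell by 1.13, Ccnd2 by 1.68, Ccnd1 by 1.16, Cdkn2a by 1.27 and E2f1 by 1.0 on the log2 scale, and Rbl2, a relative of the retinoblastoma protein, rose by 1.34. The calls of Ccnd1, Ccnd2, E2f1 and Rbl2 were lost without day 5 X14 double. The inhibitor Cdkn1b was at 37.6 to 51.8 RPM and then 64.3 to 116 RPM, without overlap (0.93 ± 0.25, limma adjusted p = 0.0077), under the minimum fold. Of 26 S phase and mitosis genes, 0 were called higher and 3 lower, with a median of -0.00 (1 and 2, median -0.19, without day 5 X14 double). The 3 act in nucleotide supply or in licensing of origins: Rrm2, a subunit of ribonucleotide reductase, went from 616, 439, 635 and 438 RPM to 195, 142, 179 and 139 RPM (-1.69 ± 0.20, limma adjusted p = 4.1e-07), Tyms fell by 1.12 and Cdc6 by 1.16, the last lost without day 5 X14 double. The mitotic genes Cdk1 (0.12 ± 0.20) and Top2a (0.06 ± 0.20) were not called.

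Metabolic and stress genes moved in part. Of 18 hypoxia response genes, 0 were called higher and 4 lower (median -0.53), and 0 and 5 without day 5 X14 double. Egln3, an oxygen-sensing hydroxylase that hypoxia induces, went from 334, 258, 337 and 273 RPM to 78, 81.5, 90.6 and 86.2 RPM (-1.83 ± 0.28, limma adjusted p = 1.9e-05). Adm, Ankrd37 and Ddit4 fell by 3.44, 1.61 and 1.26 on the log2 scale. Of 23 genes of glycolysis and lactate transport, 1 was called higher and 3 lower (median -0.20), and 2 and 4 without day 5 X14 double. Hexokinase Hk2 fell by 1.59, the lactate exporter Slc16a3 by 1.37 and phosphofructokinase Pfkp by 1.31. Aldoc was the member that rose, from 30.2, 35.6, 33.8 and 54.9 RPM to 110, 97.1, 106 and 102 RPM (1.47 ± 0.26). Ldha, lactate dehydrogenase, was at 2420 to 3280 RPM and then 1220 to 1660 RPM, without overlap, with a change of -0.97 ± 0.17 that lay under the minimum fold with all libraries and past it without day 5 X14 double (-1.08). Of 28 subunits of oxidative phosphorylation 0 were called in either direction (1 lower without day 5 X14 double).

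In a list of 19 genes of the unfolded protein and ATF4 responses, 3 were called higher and 6 lower (3 and 5 without day 5 X14 double). The 3 that rose were the chaperones of the endoplasmic reticulum Hspa5 and Hsp90b1 and the factor Ddit3, itself a target of ATF4. Hspa5 went from 409, 307, 398 and 368 RPM to 1270, 843, 956 and 829 RPM (1.38 ± 0.17, limma adjusted p = 6.7e-07). The 6 that fell are known in amino acid supply and stress: Slc7a11 (-3.06), Chac1 (-2.10), Trib3 (-1.39), Sesn2 (-1.35), Cth (-1.33) and Slc7a5 (-1.27, lost without day 5 X14 double). Atf4 was at 587 to 676 RPM and then 408 to 495 RPM (-0.50 ± 0.14, limma adjusted p = 0.011). Of 16 heat shock and oxidative stress genes, 0 were higher and 4 lower (0 and 5 without day 5 X14 double). Nqo1, a quinone reductase, went from 155, 40.8, 149 and 42 RPM to 40.3, 4.11, 38.7 and 9.73 RPM (-2.33 ± 0.38, limma adjusted p = 5.9e-05), with the double cultures higher on both days, and the chaperone Hsph1 fell by 1.94.

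By the same ranking rule, the genes with the largest falls outside the lists above were Enox1, Ankrd35, Zfp428, Vrtn, Bdnf, Spn, Pdgfc, Sept1, Aoah and Dpp4, with log2 fold changes from -4.21 (Enox1) to -3.23 (Dpp4). Enox1 went from 43.7, 23.9, 43.4 and 36.4 RPM to 2.6, 4.11, 0.625 and 2.08 RPM, and Ankrd35 from 59.1, 36.2, 55.8 and 29.7 RPM to 2.6, 4.94, 3.12 and 3.13 RPM. Bdnf and Pdgfc encode secreted growth factors, and Dpp4 a peptidase of the cell surface. Tnfrsf8 and Ddc, with few reads on day 5, had pooled day 4 to day 5 read ratios of 70.6 (95% counting interval 12.3 to 2830) and 27.1 (8.96 to 134).

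**Figure D4:**
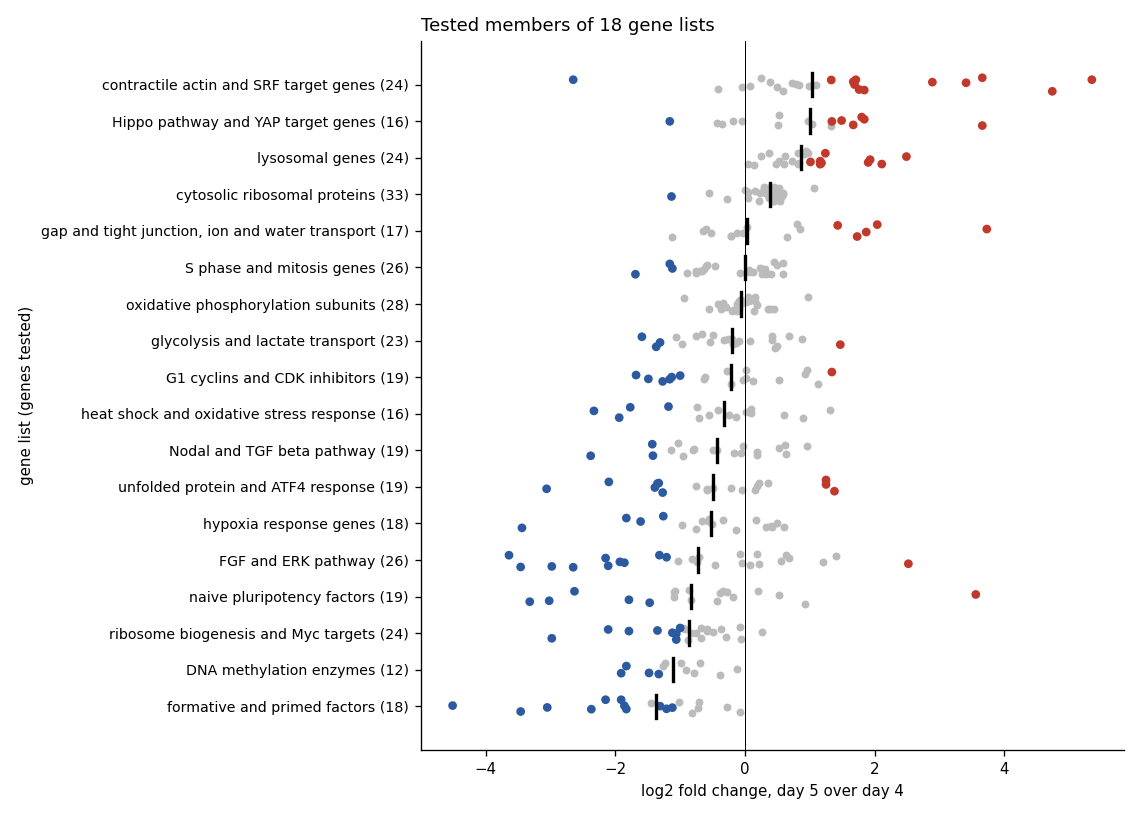
Log2 fold change from day 4 to day 5 (x axis) of every tested member of 18 gene lists (y axis, number tested in brackets), with members called higher in red, called lower in blue and not called in grey, and a black bar at the list's median. Medians run from 1.03 for the contractile list to -1.38 for formative and primed factors.

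Genes of other signals changed in small numbers. Of 19 tested genes of the Nodal and TGF beta pathway, 0 were called higher and 3 lower, among them Tdgf1 and Smad7 (median -0.43). Tdgf1, the coreceptor of Nodal, went from 825, 836, 883 and 952 RPM to 400, 365, 245 and 310 RPM (-1.43 ± 0.36, limma adjusted p = 0.0049), while Nodal was at -0.78 ± 0.33 (limma adjusted p = 0.097). Smad7 lost its call without day 5 X14 double (-0.67). Of 17 BMP pathway genes, Tbx3 and Bmp7 were called higher and Id3 and Msx1 lower. Id3 went from 89.4, 56.9, 69.8 and 50.4 RPM to 7.8, 11.5, 10.6 and 11.8 RPM, while Id1 was at -0.56 ± 0.30 (limma adjusted p = 0.2). Of 23 Wnt genes, 0 were called higher and 3 lower (Lef1, Wnt5b and Ccnd1), and 0 and 2 without day 5 X14 double. Among 17 early genes of the growth factor and serum response, 3 were called higher (Fosl2, Klf6 and Jun) and 3 lower (Egr1, Ier3 and Dusp1), and 4 and 3 without day 5 X14 double. Klf6 went from 84.7, 51.8, 81.1 and 68.9 RPM to 233, 245, 245 and 284 RPM (1.84 ± 0.23, limma adjusted p = 1e-06), and Dusp1 from 68.6 to 98.6 RPM to 24.7 to 33.8 RPM.

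Genes of mesoderm, endoderm and the Hox clusters were mostly at or under the floor of 3 reads or the filter on low values. Of 22 tested primitive streak and mesoderm factors, 16 were under 3 reads on both days, and 1 was called higher (Gata4, at a mean of 2.62 RPM on day 5) and 1 lower (Msx1). Of 16 endoderm genes 9 were under that floor, with Gata4 the only call (2 higher without day 5 X14 double). Of 21 Hox genes 2 passed the filter on low values and 0 were called. Of 11 neural genes, Nes, an intermediate filament gene, was the only call and 4 were under that floor. Nes went from 17.5, 53.1, 14.6 and 34.8 RPM to 44.2, 222, 86.2 and 196 RPM (2.11 ± 0.39). Markers of other cell types, written as 5 lists, were then summed. Of 10 tested blood and endothelial markers 0 were higher and 1 lower (Tal1), with a summed level of 65.6 to 121 RPM on day 4 and 32.5 to 78.1 RPM on day 5, and Kdr, Cdh5 and Ptprc had 0 reads in all 8 libraries. Of 9 muscle markers, Des was called higher and Ttn and Actn2 lower (1 and 3 without day 5 X14 double), and Myog, Nkx2-5 and Tnnt2 had 0 reads. Of 9 fibroblast markers Col1a1 was called higher, Col3a1, Postn and Lum had 0 reads, and the summed level was 48.8 to 62.8 RPM on day 4 and 32.5 to 122 RPM on day 5. Tagln was at 79.3 to 264 RPM on day 5, and the part of these marker genes in the rise of the contractile genes was not tested. Germ cell markers summed to 208 to 375 RPM and then 163 to 279 RPM, with Prdm1 called lower (2 lower without day 5 X14 double), and 4 Y-linked genes summed to at most 0.561 RPM.

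Over all 4 pairs together, the X chromosome as a whole did not separate from the autosomes beyond the spread between cultures. The median difference of 569 X-linked genes minus that of 14042 autosomal genes was -0.03, 0.12, -0.18 and 0.03 in the 4 pairs, with a mean of -0.02 ± 0.13 (SD, n = 4; two-sided exact sign-flip permutation p = 0.75, smallest possible with 4 pairs 0.12). Both double cultures lay below 0 (-0.03 and -0.18) and both single cultures above it (0.12 and 0.03). The mean pools the label words, and a difference between them on the X was not tested. Of the X-linked genes 74 were called (27 higher and 47 lower), 13.0% against 11.9% of autosomal genes. Xist (chrX:103460375-103483217, mm10), the RNA that silences the X, was at 59.8, 9.06, 34.4 and 4.48 RPM on day 4 and 62.4, 9.88, 152 and 10.8 RPM on day 5 (0.90 ± 0.63, limma adjusted p = 0.36). All 4 pairs were above 0, both double cultures were above both single cultures on each day, and X18 double accounted for most of the difference. Reads of Xist and of its antisense gene Tsix (-0.11 ± 0.70) cannot be told apart without strand. Hprt, the gene that carries the reporters, was at -0.45 ± 0.25 (limma adjusted p = 0.22).

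In the fit of all 36 libraries the step did not differ detectably between lines or between label words at this depth. For label words this depended on the setting. With all 36 libraries, limma called 0 genes for a difference between double and single cultures (706 at an unadjusted p under 0.05, and 0 with voom) and 0 for a difference between lines (967 unadjusted, and 1 with voom). Without the day 0 libraries in the fit, 18 genes were called for the label. Among them were Nanog, whose step was -0.31 and -0.91 in the double cultures and 1.53 and 0.48 in the single cultures, and Tagln2 (-0.19 and -0.47 against 1.70 and 1.27). Acta2 was called too, with steps of 0.95 and 2.30 in the double and 5.02 and 5.34 in the single cultures, from 0 reads on day 4. In the fit of all libraries the adjusted p of the 18 genes was 0.067 or more. On day 4 libraries grouped by label word, with r of 0.982 for X14 double with X18 double and 0.977 for X14 single with X18 single, against 0.934 to 0.946 between label words.

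Levels on the days around the step show which changes were still seen on day 6. Day 3 and day 6 share no library with the step, so the called genes were read there as a description chosen after the data were seen. From day 3 to day 6, genes called higher in the step had a median log2 fold change of 1.36 and 53.2% of them were called higher (14.9% of all genes tested) and 1.62% lower. Genes called lower had a median of -0.64, with 32.0% called lower (6.57% of all) and 5.31% higher, where the median over all genes was 0.14. Tagln had mean levels of 2.16, 4.84, 175 and 334 RPM on days 3, 4, 5 and 6, and Krt18 of 4.35, 68.3, 387 and 585 RPM. Others lay above or below both neighbouring days on day 5. Neu1 stood at 7.26, 22.2, 114 and 29.5 RPM and Lamp2 at 50.1, 46.7, 205 and 78.5 RPM. Fgf5 stood at 0.599, 53, 5.02 and 101 RPM, so that its level on day 5 lay between higher levels on either side. Egln3 (210, 300, 84 and 263 RPM), Tdgf1 (1020, 874, 330 and 822 RPM), Ier3 (38.5, 50.7, 12.4 and 62.5 RPM), Irf1 (42, 151, 43.8 and 199 RPM) and Slc16a3 (293, 389, 153 and 547 RPM) had the same course, and so had Foxd3 at lower levels (22.6, 31.8, 1.46 and 5.7 RPM). Lef1 (155, 119, 14.6 and 15.9 RPM), Enox1 (98.2, 36.9, 2.36 and 1.43 RPM) and Sept1 (246, 100, 11.1 and 5.98 RPM) stayed low on day 6. Day 6 alone does not show whether a change lasted. Neu1 and Lamp2 stood at 62.6 and 162 RPM on day 7, above their day 6 levels. Polr1b had 157, 47.2, 133 and 59 RPM on days 4 to 7, and Ccne1 269, 96.4, 184 and 98.8 RPM. Both were higher on day 6 than on days 5 and 7. The steps before and after share libraries with the one described, so these are values and not tests.

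**Figure D5:**
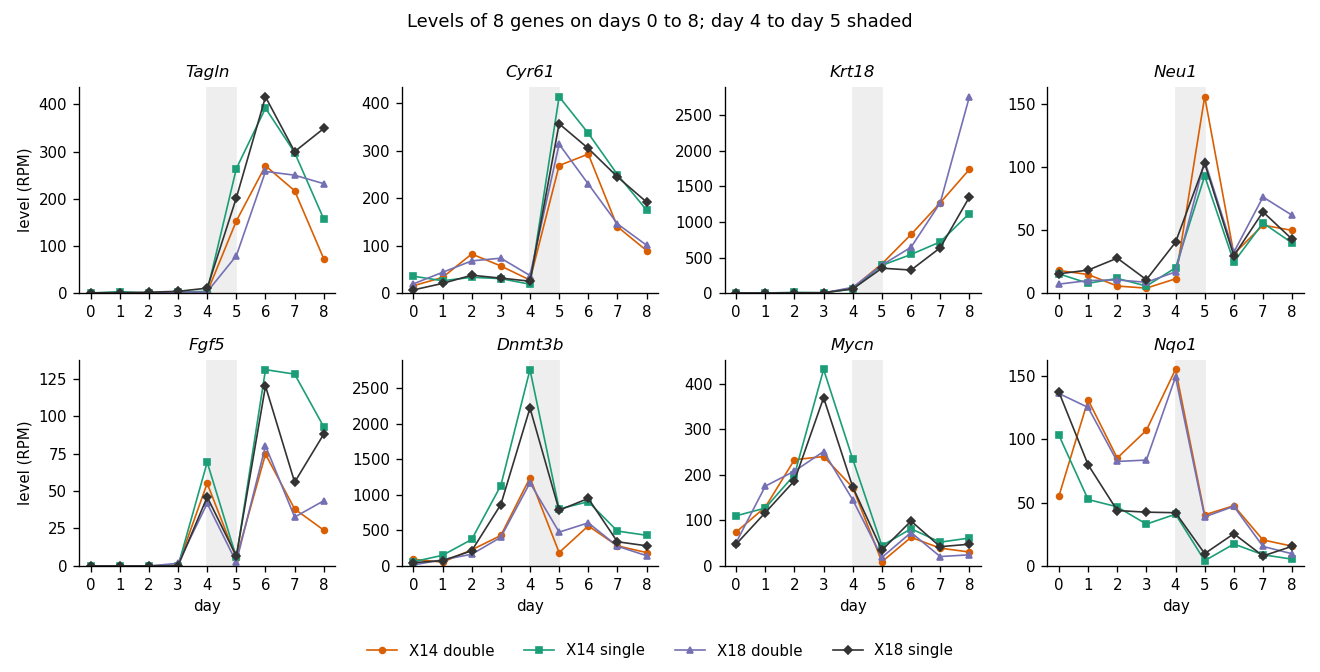
Level in RPM (y axis, from 0) of 8 genes on days 0 to 8 (x axis), with 1 line for each of the 4 cultures and the step from day 4 to day 5 shaded. In each culture Tagln, Cyr61 and Krt18 are higher on every day from 5 to 8 than on any day from 0 to 4, Neu1 peaks on day 5 at 93 to 156 RPM, and Fgf5 lies at 2.5 to 6.6 RPM on day 5 between higher values on days 4 and 6.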

How the data were processed

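RNA was sequenced from Xmas mESCs of lines X14 and X18 on 9 days, 4 libraries a day. The authors trimmed the reads, aligned them to mm10 (TopHat2 2.0.12 per the labels' processing notes) and quantified them in SeqMonk. Annotation version and strand setting are not given in the sources used here. The deposited values are log2 RPKM, although the file's name says logCPM, with 0.9 read written where a gene had 0 reads. Whole reads were recovered for 100% of values in 25965 genes (within 0.01 read or a share of 2e-06 of the reads), and RPM is the gene's reads scaled to a common library total (the RPKM divisor with gene length undone). 0 columns were left unmapped.

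Genes with at least 1 RPM in at least 4 of 36 libraries were tested on the deposited log2 values with limma 3.58.1 in R 4.3.3 (lmFit, eBayes with trend), with day and culture (line and label) as terms, and the contrast day 5 minus day 4 was read. Pairing comes from the labels, which name the line and label on each day. Deviations from the day means correlated between libraries of the same replicate number at 0.216, 0.302, 0.243 and 0.215, and at up to 0.211, 0.316, 0.213 and 0.186 with another number. The replicate block gave 1743 calls, and no block 1551. The number of reads limits precision (612740 to 2445826 in genes a library), and intervals and floors of 3 reads cover counting error only.

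Genes named are the 15 largest rises and falls with the same sign in all pairs, 10 RPM on the higher day and 4 reads on the lower, up to 5 each way with fewer reads, members of 47 gene lists, and Xist and Hprt. Members and lists were chosen with earlier results of these data known. Label and line interactions were fitted in the same way, and the X chromosome was compared by an exact sign-flip test. Alternatives covered filters, scaling, pseudocount, depth, voom, lines, labels and left-out libraries. Removal of a gene-length trend (20 bins) was chosen after the data were seen. Promoter windows come from RefSeq (GRCm38.p6). Some genes are not reported here by name.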

Additional observations from a re-analysis of the deposited data

Results flagged for a closer look

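In 21 of 412 groups of 4 libraries of a named gene, 1 library lay far from the other 3, with a gap to the nearest of them above Dixon's critical value at 95% for a group of 4. Chance gives about 1 in 20 groups, and 15 of the 21 are day 5 X14 double, the shallowest library. In day 5 X14 double, levels in RPM lay below those of the other 3 day 5 libraries for Zfp428 (1.3 against 5.56 to 6.58), Etv5 (100 against 183 to 202), Dnmt3a (72.8 against 190 to 212), Dnmt1 (32.5 against 172 to 191), Ier3 (5.2 against 13.6 to 16.5), Bmp7 (1.3 against 7.99 to 9.99), Myh9 (266 against 901 to 1100), Amotl2 (117 against 269 to 279), Yap1 (92.3 against 184 to 202), Wwtr1 (45.5 against 71.2 to 77.5), Itgb4 (6.5 against 9.03 to 9.37), Npc1 (62.4 against 173 to 205), Fasn (59.8 against 272 to 354) and Col1a1 (0 against 3.75 to 4.17), and above them for Plin2 (52 against 41.7 to 42). Zfp428 and Ier3 are short genes (1308 and 1131 bases), a class in which this library lay above the others, and the part of gene length in the levels listed was not tested. The other 6 were Dbndd2 in day 4 X18 double (2.25 against 0 to 0.672), Tdh in day 5 X18 single (3.47 against 9.99 to 12.3), Bop1 in day 4 X14 single (172 against 158 to 160), Trib3 in day 5 X18 double (31.9 against 44.2 to 46.1), Epcam in day 5 X18 single (450 against 512 to 522) and Col1a1 in day 4 X18 single (1.68 against 0 to 0.563), in RPM.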

How the results depend on the processing

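The count of 1743 called genes became 975 among genes averaging 10 RPM or more, 566 in line X14 alone, 569 in double cultures alone, 1156 in single cultures alone and 2783 with no minimum fold, and it ran from 1190 to 1652 when each culture was left out. Without the replicate block 1551 genes were called. The remaining alternatives, among them 1917 without day 5 X14 double, 1333 after thinning to 612740 reads, 1395 on log2(RPM + 2) and 1873 with the length trend removed, stayed within 1.5 times. The share of called genes that rose was 46.0% and ran from 34.3% in line X14 alone and 35.9% in double cultures alone to 52.0% without day 5 X14 double. The X minus autosome step of -0.016 ran from -0.061 to 0.039 when each culture was left out, above 0 without X18 double, at p = 0.75 in an exact sign-flip permutation test. Calls for the label by step interaction went from 0 to 18 without day 0, 2 after quantile normalization, 5 on log2(RPM + 2) and 7 with the length trend removed, and for the line from 0 to 1 with voom. The cause was not tested. Of 165 called genes among 206 named, 105 were called in every one of 17 settings, and none of the 206 reversed. Without day 5 X14 double 143 were called, and those lost include Hnrnpu, Peg3, Insig1, Fasn and Bst2. Depth limits genes under about 2 RPM, the level of 3 reads.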

Other observations

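Several groups outside the comparisons above held single changes of some size. Of all genes tested 11.9% were called, and 13.1% without day 5 X14 double. The counts below are to be read against these shares, as single genes and not as results about the groups. Among 19 tested genes of interferon response and antigen presentation, 2 were called higher and 2 lower (1 and 3 without day 5 X14 double). B2m, the light chain of class I molecules, went from 10.8, 5.82, 9.01 and 17.9 RPM to 58.5, 83.1, 59.3 and 76.1 RPM (2.77 ± 0.40, limma adjusted p = 1e-05), without overlap, and Bst2 rose by 1.12. Irf1 fell by 1.74 on the log2 scale, and Ddx58, an RNA sensor, went from 50.4, 25.9, 59.1 and 31.9 RPM to 9.1, 7.41, 20.6 and 6.25 RPM. Among 23 germline genes Sycp3, of the synaptonemal complex, went from 12.1, 17.5, 24.2 and 32.5 RPM to 185, 78.2, 95.6 and 96.6 RPM (2.41 ± 0.41, limma adjusted p = 7.9e-05), and its mean on day 6 was 27.7 RPM. Sohlh2 was the member that fell (-1.62), and 2 were lower without day 5 X14 double.

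Of 21 polycomb subunits Phf1 and Ezh1 were called higher and Jarid2 lower. Jarid2, which helps place the complex on DNA, went from 595, 547, 625 and 439 RPM to 68.9, 201, 233 and 271 RPM (-1.67 ± 0.34, limma adjusted p = 0.00061). Of 18 genes of fatty acid synthesis and lipid storage, Fabp3 (2.16) and Plin2 (1.24), a coat protein of lipid droplets, rose, while Fads2 (-1.32) and Fasn (-1.18) fell, the last at -0.51 without day 5 X14 double. Of 24 cholesterol synthesis genes Hmgcs1 and Insig1 rose, both by 1.09, and 1 was higher without day 5 X14 double. Of 25 imprinted genes Igf2 was called higher (1.65) and Peg3 lower (-1.34), and Peg3 lost its call without day 5 X14 double (-0.99), where 2 members were higher and 2 lower. Jak2 (2.61) was called among 14 cytokine pathway genes (4 higher without day 5 X14 double), Hmga2 (1.45) among 12 of the Lin28 and let-7 axis (2 higher without it), Bcl2 (3.14) and Perp (1.18) among 23 p53 targets and apoptosis regulators, Dpf1 (lower) among 21 BAF subunits and Slc39a8 (higher) among 11 yolk sac transport genes (2 higher without it). Of 14 retinoic acid genes and 9 two-cell-like genes, limma called 0 in either direction.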
